A study of Mus musculus with 6 samples.

Results

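The genes described here are those of the core autophagy machinery, picked by row name from the table of read counts per gene: the Atg genes, the Gabarap and Map1lc3 genes, Wipi1 and Wipi2, the kinases Ulk1 to Ulk3, and Becn1, Sqstm1, Nbr1, Optn, Tax1bp1, Pik3c3, Pik3r4, Rb1cc1, Uvrag and Ambra1. The choice took 40 of 46078 rows. Of these, 38 were genes with a role in autophagy, Atg4a.ps was a copy of Atg4a annotated apart from it, and a second Atg2a row (Atg2a.1) was at 0 counts in every library; 39 of the 40 passed the filter on low counts.

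The cells were satellite cells, resident stem cells of muscle that express Pax7. They were sorted for yellow fluorescent protein 24 h after an injury of the lower hindlimb with 30 µl of cardiotoxin, a snake venom protein that destroys fibres. The 3 libraries labelled Paxbp1-iKO came from Pax7creER:Paxbp1flox/flox:R26R-YFP mice, in which both alleles of Paxbp1 are floxed, and the 3 control libraries from Pax7creER:Paxbp1flox/+:R26R-YFP mice with a single floxed allele. Both groups thus carried a Cre recombinase fused to an oestrogen receptor domain and driven by the Pax7 promoter, the Cre-activated fluorescent reporter, at least a single floxed allele and the injury. Ages, the induction schedule and the animal behind each library were not found in the labels; the p-values therefore reflect the spread among libraries, which may be technical.

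Autophagy encloses cytoplasm in a double membrane, the autophagosome, and delivers it to the lysosome. An initiation complex around the kinase Ulk1 activates a class III phosphatidylinositol 3-kinase, whose lipid product PI3P recruits Wipi proteins. A conjugation cascade resembling ubiquitination then attaches the small Atg8 proteins (the LC3 and GABARAP families) to the membrane, where cargo receptors such as Sqstm1 (p62) bind them. In muscle, autophagy is known to be active in satellite cells and to be needed as they leave quiescence. Levels of messenger RNA do not measure the flow of material through the pathway.

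Total counts per library ran from 23327359 to 28050748. Paxbp1, the targeted gene, had 2745, 3162 and 3125 counts in the iKO-labelled libraries 1 to 3, against 1583, 1917 and 1592 in controls 1 to 3, which goes against the label of a knockout (log2 fold change 0.68 ± 0.13, adjusted p = 0.00954). A count over the whole gene cannot tell a deleted floxed segment from an intact one. Groups are named by their labels, and every direction rests on those labels. All 9 satellite cell markers examined were tested, with a summed level of 11280 to 11570 CPM (counts scaled to a common library size) in the iKO-labelled libraries and 8135 to 8806 CPM in the controls, with Sdc4 the largest contributor in both groups. The markers moved in both directions, with 6 higher and 2 lower. Pax7 averaged 49.5 ± 1.7 CPM in the iKO-labelled libraries and 11.35 ± 2.14 CPM in the controls, and Chodl 925 ± 163 CPM in the iKO-labelled libraries and 162 ± 17.8 CPM in the controls. The 2 that fell were Myf5 (-0.62 ± 0.08) and Itga7 (-0.68 ± 0.12); these 4 were picked out after their values were seen. Markers of other cell types were present at lower summed levels than those of satellite cells, and none was at 0 in every library. Those of macrophages and neutrophils summed to 106 to 205 CPM in the iKO-labelled libraries and 125 to 192 CPM in the controls. The largest part was Lyz2, at 71.4 to 156 CPM in the iKO-labelled libraries and 81.7 to 140 CPM in the controls. Those of endothelial cells summed to 71.5 to 87.2 CPM in the iKO-labelled libraries and 44.4 to 132 CPM in the controls. Those of mature fibres summed to 12.5 to 17.2 CPM in the iKO-labelled libraries and 16.4 to 64.2 CPM in the controls, and of these markers 1, Acta1, was called (6.12 CPM in the iKO-labelled libraries and 22.0 CPM in the controls). The fibro-adipogenic list summed to 258 to 299 CPM in the iKO-labelled libraries and 260 to 277 CPM in the controls; most of that was Cd34, which satellite cells also express. The part of other cells, or of the shifts in satellite cell markers, in the results below was not tested. In bulk RNA, fewer cells of a type and less RNA per cell cannot be told apart.

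Of the 39 rows tested, 8 were higher and 5 lower in the iKO-labelled libraries (edgeR's quasi-likelihood test; here and below the adjusted p is that of Benjamini and Hochberg across 16252 tested genes, with a threshold of 0.05). Members called higher made up 20.5%, beside 8.15% of all tested genes, and members called lower 12.8%, beside 12.3%. Among tested genes with a mean of at least 10 CPM, a limit set after the values were seen, 11.4% were called higher and 20.6% lower, and of the 33 members at that level 21.2% were higher and 15.2% lower. The rises were in Rb1cc1 of the initiation complex, Atg14 and Ambra1 of the lipid kinase complex, Atg9b, the conjugation genes Atg12, Atg16l1 and Atg16l2, and Gabarap; the falls were in Wipi1, Wipi2, Map1lc3a, Sqstm1 and Tax1bp1. The median log2 fold change of the members was 0.01, against 0.02 over all tested genes. For 12 of the 39 tested members every iKO-labelled library was above every control, which also held for 18.9% of all tested genes. For 9 of the 39 every iKO-labelled library was below every control, which also held for 20.9% of all tested genes. In either direction the groups did not overlap for 39.8% of all tested genes. Among the 12 was the Atg4a.ps row, whose counts reached 10 only in the iKO-labelled libraries. That row passed the count filter through the group where it was high, so its lack of overlap carries no weight. The counts depend on single libraries: with any 1 of the 6 left out, 3 to 4 members were called higher and 0 to 4 lower, while over all genes 706 to 1159 were called higher and 1347 to 1657 lower. Under scaling by library totals alone, 8 members were higher and 1 lower, and over all genes 1921 were higher and 1440 lower; that scaling shifts the median log2 fold change over all genes up by 0.13. With upper-quartile factors, 8 members were higher and 3 lower, and over all genes 1630 were higher and 1656 lower.

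**Figure D1:**
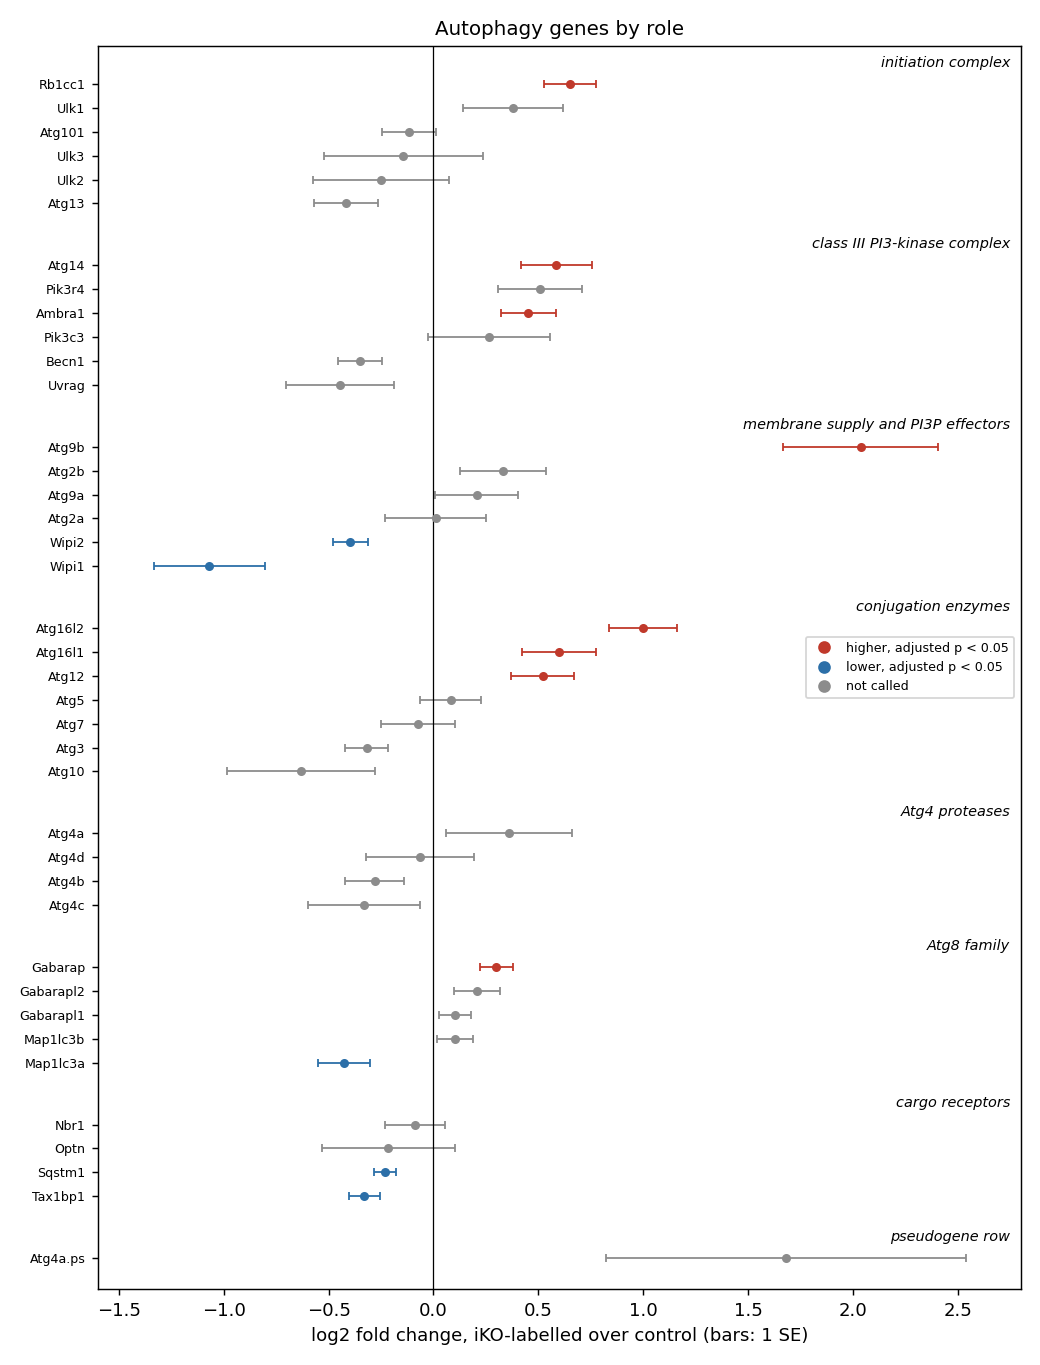
Log2 fold change of the 39 tested autophagy rows, iKO-labelled over control, grouped by role; points are edgeR estimates and bars 1 standard error. The 8 rises (red) are spread over the initiation, lipid kinase, membrane, conjugation and Atg8 groups, the 5 falls (blue) include both Wipi genes and 2 cargo receptors, and no Atg4 protease was called.

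The promoters of the members with the largest differences are shown first, with that of Atg14, which holds a searched motif. Atg9b and Atg16l2 were the largest rises and Wipi1 the largest fall; Wipi2 is its paralogue and the most abundant of the membrane group. Each stretch runs from 250 bases before to 50 after the gene's annotated start (RefSeq, GRCm38.p6), in lower case, with any match to a searched motif in capitals. They lie at chr5:24392094-24392393 (minus strand, Atg9b), chr7:101302039-101302338 (minus strand, Atg16l2), chr14:47568385-47568684 (minus strand, Atg14), chr11:109611340-109611639 (minus strand, Wipi1) and chr5:142629334-142629633 (plus strand, Wipi2). The windows of Atg14, Wipi1 and Wipi2 lie wholly inside the gene spans given below, which come from another annotation (GENCODE). Their RefSeq starts are thus not the outermost annotated ones.
Atg9b: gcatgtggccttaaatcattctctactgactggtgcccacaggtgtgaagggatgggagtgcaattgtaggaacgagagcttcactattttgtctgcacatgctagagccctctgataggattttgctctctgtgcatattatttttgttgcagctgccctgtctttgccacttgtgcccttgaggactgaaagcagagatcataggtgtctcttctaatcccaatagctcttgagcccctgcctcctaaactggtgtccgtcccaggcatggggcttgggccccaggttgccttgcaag
Atg16l2: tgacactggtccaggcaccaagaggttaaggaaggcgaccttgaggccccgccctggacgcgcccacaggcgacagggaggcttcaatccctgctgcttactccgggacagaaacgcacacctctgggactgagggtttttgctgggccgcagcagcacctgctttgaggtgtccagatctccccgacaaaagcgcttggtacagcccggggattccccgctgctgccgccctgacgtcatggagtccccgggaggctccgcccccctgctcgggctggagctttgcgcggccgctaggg
Atg14: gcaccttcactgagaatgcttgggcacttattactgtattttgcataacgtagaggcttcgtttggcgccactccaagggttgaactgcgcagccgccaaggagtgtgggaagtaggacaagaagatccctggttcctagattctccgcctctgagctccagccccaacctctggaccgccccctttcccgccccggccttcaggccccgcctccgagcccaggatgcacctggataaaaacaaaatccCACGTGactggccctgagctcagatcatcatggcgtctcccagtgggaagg
Wipi1: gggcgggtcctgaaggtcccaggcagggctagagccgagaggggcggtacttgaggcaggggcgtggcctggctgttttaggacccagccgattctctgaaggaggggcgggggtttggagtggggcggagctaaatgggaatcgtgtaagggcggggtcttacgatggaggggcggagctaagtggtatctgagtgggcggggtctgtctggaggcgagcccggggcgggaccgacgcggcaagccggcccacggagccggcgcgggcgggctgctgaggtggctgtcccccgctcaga
Wipi2: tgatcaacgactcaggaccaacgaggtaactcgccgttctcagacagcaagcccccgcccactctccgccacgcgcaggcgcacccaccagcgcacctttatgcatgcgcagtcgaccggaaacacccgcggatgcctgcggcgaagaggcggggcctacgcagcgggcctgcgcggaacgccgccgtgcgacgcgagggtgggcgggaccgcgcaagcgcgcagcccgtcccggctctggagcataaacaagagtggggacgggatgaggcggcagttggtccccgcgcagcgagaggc

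Promoters were searched on both strands for the E-box CACGTG, for the palindrome TCACGTGA, which holds that E-box and resembles the element bound by the lysosomal regulator TFEB, and for GTAAACA, a core of FoxO binding sites. Of 9 called members with a promoter in the table, 1 held the E-box, Atg14, whose match is in capitals above and begins 1 base before the start. Of all 27025 genes in the table, 8.09% held it in at least 1 promoter, as did 4 of the 32 autophagy genes with an entry (12.5%): Atg14, Atg3, Atg5 and Atg7. The Atg7 window (chr6:114670846-114671145), like that of Atg14, lies inside the GENCODE span of the gene (114643097 to 114860614, plus strand). The palindrome was found in 1 of these 32 genes, Atg3, 72 bases before the start, and in 1.12% of all genes. The FoxO core was in none of the 32 and in 4.05% of all genes. These matches are descriptions of the letters in the window and not sites shown to be bound.

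In the initiation complex, 1 of 6 genes rose and none fell, beside 8.15% of all tested genes higher and 12.3% lower. Rb1cc1, which encodes FIP200, the scaffold that holds the complex together (ENSMUSG00000025907.14, plus strand of chromosome 1, 6206197 to 6276648 in GRCm38, 27 exon blocks), had 148, 143 and 141 CPM in the iKO-labelled libraries, against 103, 97.5 and 75.6 CPM in the controls. The lowest iKO-labelled library was above the highest control, and the spread within the iKO-labelled group was small. The rise was 1.57-fold (log2 fold change 0.65 ± 0.12, adjusted p = 0.00884), and it was called under all 17 alternatives, each library left out included. The catalytic subunits did not pass the test. Ulk1 averaged 28.7 ± 6.52 CPM in the iKO-labelled libraries and 22.0 ± 5.20 CPM in the controls (SD, n = 3 each; 0.38 ± 0.24, adjusted p = 0.323), and its paralogue Ulk2 averaged 13.3 ± 4.18 CPM in the iKO-labelled libraries and 15.9 ± 5.09 CPM in the controls (adjusted p = 0.656). Ulk3, a related kinase known mainly from Hedgehog signalling, averaged 6.16 ± 1.44 CPM in the iKO-labelled libraries and 6.79 ± 2.88 CPM in the controls (adjusted p = 0.84). The adaptor Atg13 had 24.4, 31.3 and 24.7 CPM in the iKO-labelled libraries and 36.8, 37.4 and 33.2 CPM in the controls. Those groups did not overlap, but the difference missed the threshold (-0.42 ± 0.15, adjusted p = 0.0983). Per length, Atg101, a partner that stabilises Atg13, was the most abundant gene of the complex, at 37.6, 30.5 and 35.5 FPKM in the iKO-labelled libraries and 34.9, 37.7 and 38.3 FPKM in the controls (adjusted p = 0.602).

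Of the 6 genes of the class III lipid kinase complex, 2 rose and none fell, beside 8.15% of all tested genes higher and 12.3% lower. Atg14, the subunit that directs the kinase to sites of autophagosome formation (ENSMUSG00000037526.7, minus strand of chromosome 14, 47540893 to 47570649), had 47.1, 58.2 and 61.8 CPM in the iKO-labelled libraries, against 39.7, 41.4 and 30.3 CPM in the controls. The groups did not overlap, although the lowest iKO-labelled library was close to the highest control. The rise was 1.5-fold (0.59 ± 0.17, adjusted p = 0.0439), and it missed the threshold without control 1, 2 or 3 or without iKO 2 or 3 (adjusted p up to 0.148). Ambra1, a Beclin 1 partner that also serves a ubiquitin ligase acting on D-type cyclins (ENSMUSG00000040506.16, chromosome 2, 91730134 to 91918849), had 58.15, 46.84 and 50.45 CPM in the iKO-labelled libraries, against 39.25, 38.27 and 36.09 CPM in the controls. All iKO-labelled values were again above all controls. It rose 1.37-fold (0.45 ± 0.13, adjusted p = 0.0442), a call lost in each of the 6 fits with a library removed (adjusted p between 0.0666 and 0.132).

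Uvrag takes the place of Atg14 in a second form of the kinase complex that acts on endosomes. It had 28.7, 21.7 and 14.5 CPM in the iKO-labelled libraries and 24.99, 34.71 and 28.66 CPM in the controls, overlapping groups (-0.44 ± 0.26, adjusted p = 0.287). The ratio of Atg14 to Uvrag in FPKM, a pair set together after their values were seen, was 1.63, 2.68 and 4.25 in the iKO-labelled libraries and 1.58, 1.19 and 1.05 in the controls. The ratios of the groups did not overlap, but those of iKO 1 and control 1 were nearly level. Becn1, which encodes Beclin 1, was at 70.7, 70.7 and 77.6 CPM in the iKO-labelled libraries and 89.8, 102 and 87.4 CPM in the controls. That difference just missed the threshold (-0.35 ± 0.11, adjusted p = 0.0513) and passed it with DESeq2 (adjusted p = 0.024) and limma-voom (0.0401). Becn1 shares 43.9% of its exon bases with Cntd1 on the other strand, which had 4 to 34 counts per library. The catalytic subunit Pik3c3 (Vps34) averaged 27.1 ± 4.86 CPM in the iKO-labelled libraries and 22.6 ± 9.24 CPM in the controls (adjusted p = 0.591). Its regulatory partner Pik3r4 (Vps15) averaged 33.4 ± 1.07 CPM in the iKO-labelled libraries and 23.5 ± 6.38 CPM in the controls (0.51 ± 0.20, adjusted p = 0.119); without control 2 it was called (0.76, adjusted p = 0.025).

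Among the 6 genes of membrane supply and PI3P binding, Atg9b rose and both Wipi genes fell, beside 8.15% of all tested genes higher and 12.3% lower. Atg9b encodes a paralogue of the Atg9a lipid scramblase, which travels on vesicles that seed the new membrane (ENSMUSG00000038295.14, minus strand of chromosome 5, 24384181 to 24392143, 14 exon blocks). It had 204, 152 and 134 counts (7.15, 5.18 and 5.43 CPM) in the iKO-labelled libraries, against 32, 29 and 46 counts (1.43, 1.12 and 1.76 CPM) in the controls. The lowest iKO-labelled library was well above the highest control. The rise was 4.11-fold (2.04 ± 0.37, adjusted p = 0.00722), and it was called without each library in turn. With limma on unfiltered log2(FPKM + 1) the log2 fold change was 0.868 and the call was lost (adjusted p = 0.0777). At a mean of 0.919 FPKM over all libraries, Atg9b did not enter the fits filtered at 1 FPKM. Atg9b lies tail to tail with Nos3, endothelial nitric oxide synthase, and shares 294 exon bases (7.5%) with it on the other strand. Nos3 had 268, 230 and 216 counts in the iKO-labelled libraries and 137, 137 and 126 counts in the controls (0.68 ± 0.25, adjusted p = 0.0949). Smart-Seq2 libraries do not mark the strand, so reads in the shared bases cannot be told apart; the part of Nos3 in the Atg9b value was not tested. Atg9a was at 18.3, 22.3 and 18.2 CPM in the iKO-labelled libraries and 13.7, 17.9 and 19.4 CPM in the controls (adjusted p = 0.537). Atg9b thus made up 36.3%, 25.3% and 30.4% of the summed Atg9 FPKM in the iKO-labelled libraries and 13.2%, 8.38% and 11.7% in the controls, with Atg9a the larger part in every library.

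Wipi1, a PI3P-binding protein of the early autophagosome (ENSMUSG00000041895.15, minus strand of chromosome 11, 109573331 to 109611967), had 10.8, 13.5 and 7.18 CPM in the iKO-labelled libraries, against 18.8, 21.3 and 26.1 CPM in the controls. The groups did not overlap. It was 2.1-fold lower (-1.07 ± 0.27, adjusted p = 0.0256), and the call ended without control 2 or 3 or without iKO 1 or 3 (adjusted p up to 0.0868). Wipi2, which recruits Atg16l1 to PI3P (ENSMUSG00000029578.15, plus strand of chromosome 5, 142627698 to 142670588), was at 198, 208 and 201 CPM in the iKO-labelled libraries, against 274, 285 and 240 CPM in the controls. It was 1.32-fold lower (-0.40 ± 0.08, adjusted p = 0.0136), with groups apart; the call narrowly ended without iKO 3 (adjusted p = 0.0524) and under library-total scaling (0.0599). In FPKM, Wipi2 held 86.5% to 92.1% of the pair in the iKO-labelled libraries and 79.4% to 85.9% in the controls. The lipid transfer proteins Atg2a and Atg2b overlapped between groups: Atg2a averaged 48.0 ± 3.09 CPM in the iKO-labelled libraries and 47.6 ± 17.7 CPM in the controls, and Atg2b 52.4 ± 5.54 CPM in the iKO-labelled libraries and 41.6 ± 10.9 CPM in the controls (adjusted p = 0.982 and 0.316).

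**Figure D2:**
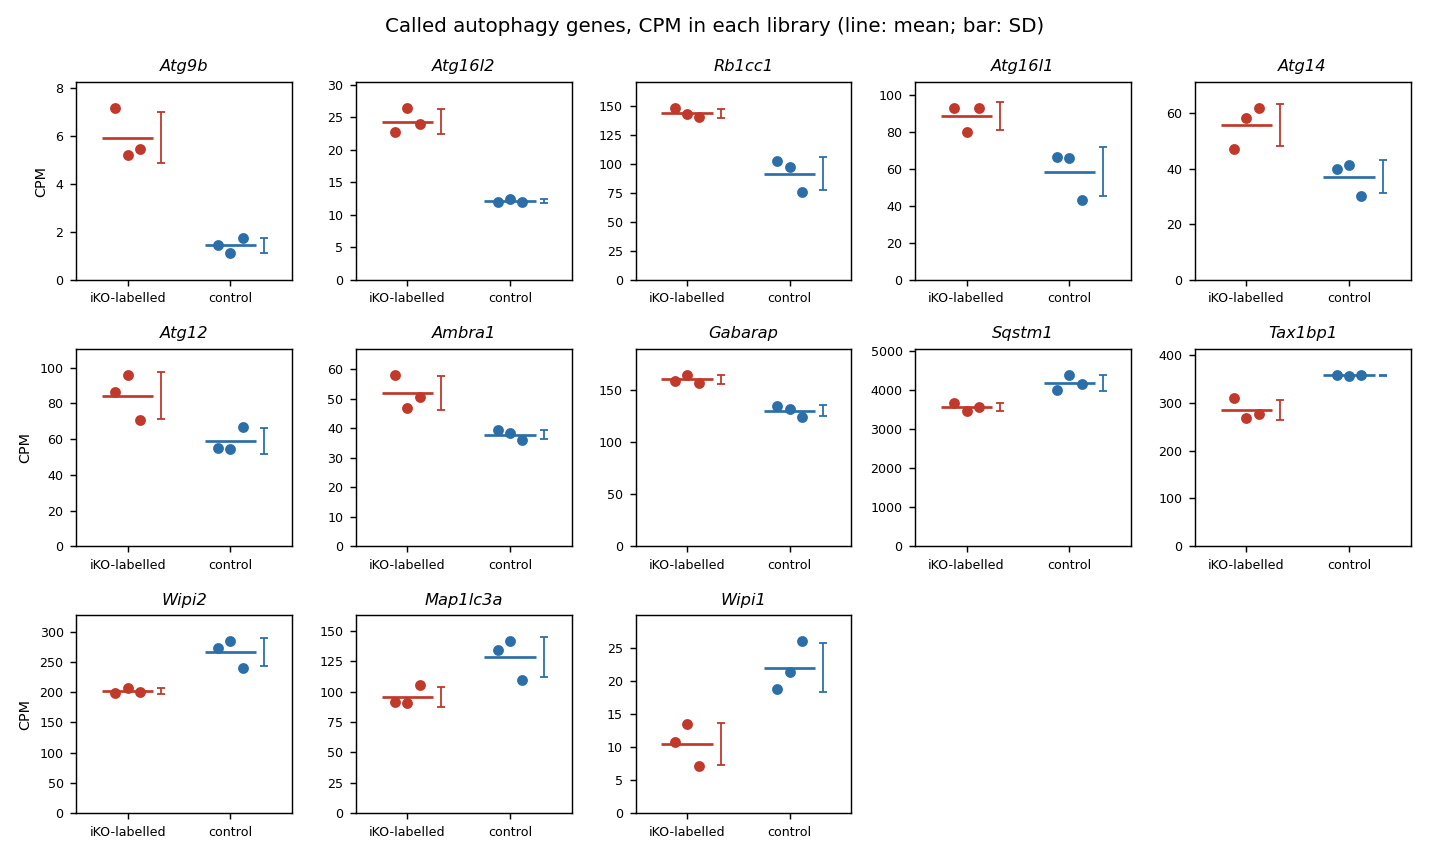
CPM of the 13 called autophagy genes in each library, iKO-labelled left and control right; points are libraries, lines means and bars SD (n = 3 each). Groups do not overlap in any panel, from Atg9b (4.11-fold higher) through Sqstm1 (1.17-fold lower) to Wipi1 (2.1-fold lower). The panels were picked by the test on these same libraries, so their separation adds no support. Groups did not overlap for 39.8% of all tested genes.

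In the conjugation machinery 3 of 7 genes rose and none fell, beside 8.15% of all tested genes higher and 12.3% lower. Atg12 encodes the ubiquitin-like protein joined to Atg5, and Atg16l1 the scaffold of the complex that fixes where Atg8 proteins are attached. Atg16l2 encodes a paralogue of that scaffold, and its part in that complex was not tested. Atg16l2 (ENSMUSG00000047767.17, minus strand of chromosome 7, 101263034 to 101302251) had 22.7, 26.4 and 23.9 CPM in the iKO-labelled libraries, against 11.98, 12.49 and 12.03 CPM in the controls. Both groups were tight and far apart, and the 2.0-fold rise (1.0 ± 0.16, adjusted p = 0.0046) was called under all 17 alternatives. Atg16l1 (ENSMUSG00000026289.15, plus strand of chromosome 1, 87755870 to 87792428) had 93.2, 80.2 and 93.2 CPM in the iKO-labelled libraries, against 66.4, 66.3 and 43.2 CPM in the controls. Control 3 stood below the other controls. The rise was 1.51-fold (0.60 ± 0.18, adjusted p = 0.0476), and it missed the threshold in each of the 6 fits with a library removed (adjusted p between 0.051 and 0.141). Per length, Atg16l1 remained the larger of the pair in every library, with Atg16l2 at 37.7%, 44.9% and 38.9% of their summed FPKM in the iKO-labelled libraries and 30.9%, 31.8% and 40.9% in the controls, shares that overlapped.

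Atg12 (ENSMUSG00000032905.5, minus strand of chromosome 18, 46730144 to 46741580) had 86.5, 96.1 and 70.5 CPM in the iKO-labelled libraries, against 54.9, 54.54 and 67.05 CPM in the controls. The lowest iKO-labelled library, iKO 3, was only just above control 3. The rise was 1.43-fold (0.52 ± 0.15, adjusted p = 0.0428), and it was lost without control 1 or 2 or without iKO 1 or 2 (adjusted p up to 0.156). Atg5, to which Atg12 is joined, averaged 47.4 ± 1.53 CPM in the iKO-labelled libraries and 44.8 ± 7.12 CPM in the controls (0.08 ± 0.14, adjusted p = 0.754). The activating enzyme Atg7, shared by both conjugation reactions, was at 24.8 ± 3.81 CPM in the iKO-labelled libraries and 26.1 ± 3.00 CPM in the controls (adjusted p = 0.821). The conjugating enzymes stood lower without passing the test. Atg3, which acts on Atg8 proteins, had 91.0, 97.7 and 83.7 CPM in the iKO-labelled libraries and 113, 105 and 122 CPM in the controls, groups that did not overlap (-0.32 ± 0.10, adjusted p = 0.0654; 0.0443 with DESeq2). Atg10, which acts on Atg12, had 3.37, 4.36 and 4.05 CPM in the iKO-labelled libraries and 3.98, 6.22 and 8.05 CPM in the controls (-0.63 ± 0.35, adjusted p = 0.265). In FPKM, Atg3 was the most abundant of the group over all libraries, averaging 28.4 ± 2.20 in the iKO-labelled libraries and 35.02 ± 2.67 in the controls, while Atg12 averaged 33.4 ± 5.13 in the iKO-labelled libraries and 23.1 ± 2.95 in the controls. In FPKM, Atg12 was the higher of the pair in every iKO-labelled library and the lower in every control. In CPM, which ignore gene length, Atg12 was below Atg3 in every library. The FPKM order thus rests on the gene lengths used, whose annotation is not stated. GENCODE lists 7711 exon bases for Atg12 and 3154 for Atg3.

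No gene of the 4 Atg4 proteases, which trim Atg8 proteins before conjugation and free them again afterwards, passed the test. Over all tested genes, 8.15% were higher and 12.3% lower. Atg4b, the most abundant in FPKM on average, had 67.3, 88.6 and 93.8 CPM in the iKO-labelled libraries and 97.3, 96.0 and 110 CPM in the controls; the groups did not overlap (-0.28 ± 0.14, adjusted p = 0.213). Log2 fold changes of the other members ran from -0.33 for Atg4c to 0.36 for Atg4a. The Atg4a.ps row, a copy of Atg4a on another chromosome, had 24, 20 and 10 counts in the iKO-labelled libraries and 2, 4 and 9 in the controls (adjusted p = 0.224). The labels do not say how reads matching both copies were counted, which leaves both values uncertain.

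Of the 5 genes of the Atg8 family, Gabarap rose and Map1lc3a fell, and the other members did not pass the test. Of all tested genes, 8.15% were higher and 12.3% lower. Gabarap (ENSMUSG00000018567.14, plus strand of chromosome 11, 69991143 to 69994951) had 158.8, 164.5 and 156.4 CPM in the iKO-labelled libraries, against 134.5, 131.3 and 123.8 CPM in the controls. It was 1.23-fold higher with no overlap (0.30 ± 0.08, adjusted p = 0.032), and the call was lost in each of the 6 fits with a library removed (adjusted p between 0.0503 and 0.119). Map1lc3a, which encodes LC3A (ENSMUSG00000027602.9, plus strand of chromosome 2, 155276297 to 155278073), had 91.2, 90.6 and 105 CPM in the iKO-labelled libraries, against 134, 142 and 110 CPM in the controls. Control 3 was close to iKO 3. Map1lc3a was 1.34-fold lower (-0.43 ± 0.12, adjusted p = 0.0428), a call that ended without every library but control 3 (adjusted p up to 0.14) and under RLE, upper-quartile and library-total scaling (adjusted p up to 0.14).

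Per length, Gabarapl1 was the most abundant family member in every library, with 168, 189 and 168 FPKM in the iKO-labelled libraries and 156, 163 and 165 FPKM in the controls. Those groups did not overlap but lay close together (0.10 ± 0.08, adjusted p = 0.41). The second place was held by Gabarap in iKO 1 and 2 and by Map1lc3a in iKO 3 and every control. Gabarap averaged 85.6 ± 2.23 FPKM and Map1lc3a 79.9 ± 6.82 FPKM in the iKO-labelled libraries, where their ranges overlapped. In the controls Map1lc3a averaged 106 ± 13.4 FPKM and Gabarap 68.7 ± 2.38 FPKM, without overlap. Map1lc3b, which encodes LC3B, the usual marker protein of autophagosomes, was at 40.4 ± 1.42 FPKM in the iKO-labelled libraries and 37.2 ± 3.19 FPKM in the controls (0.10 ± 0.09, adjusted p = 0.477), and Gabarapl2 at 29.5 ± 1.75 FPKM in the iKO-labelled libraries and 25.3 ± 1.57 FPKM in the controls (adjusted p = 0.243). The sum over the family was 400 to 422 FPKM in the iKO-labelled libraries and 382 to 411 FPKM in the controls, so that the total overlapped. The shares of Gabarapl1 and Map1lc3b in that sum overlapped too, while those of the other 3 members did not. Map1lc3a held 19.1%, 17.9% and 21.5% of the sum in the iKO-labelled libraries and 27.2%, 28.6% and 24.0% in the controls, Gabarap 21.3%, 20.9% and 20.4% in the iKO-labelled libraries and 17% to 17.4% in the controls, and Gabarapl2 6.79% to 7.82% in the iKO-labelled libraries and 6.18% to 6.64% in the controls. The GABARAP to LC3 ratio, in summed FPKM of each subfamily, was 2.45, 2.67 and 2.15 in the iKO-labelled libraries and 1.68, 1.68 and 2.02 in the controls; it was formed after the values were seen and not tested.

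**Figure D3:**
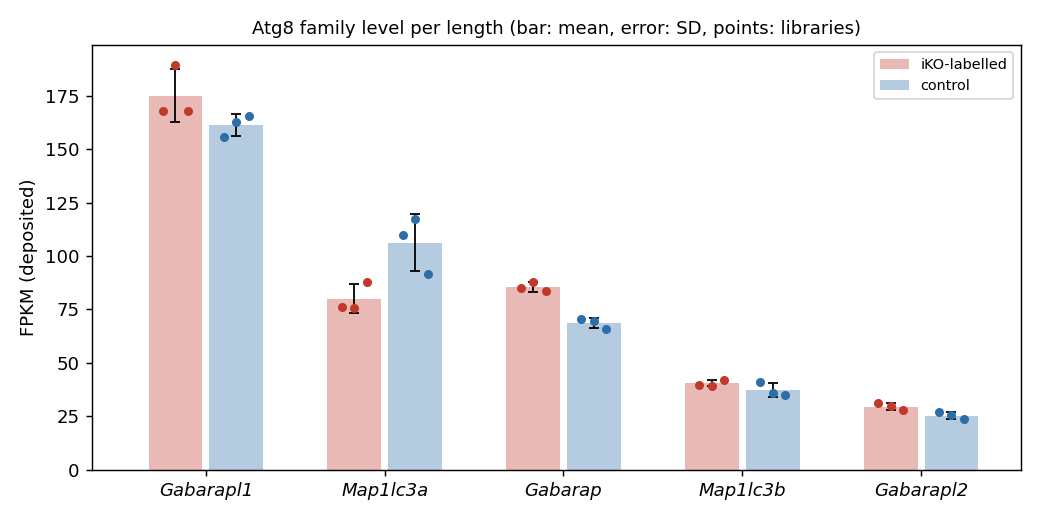
Deposited FPKM of the 5 Atg8 family genes; bars are means, error bars SD and points the 3 libraries of each group, iKO-labelled left of control. Gabarapl1 leads in both groups, Map1lc3a is lower (79.9 ± 6.82 against 106 ± 13.4 FPKM) and Gabarap higher (85.6 ± 2.23 against 68.7 ± 2.38 FPKM) in the iKO-labelled libraries.

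Of the 4 cargo receptors 2 fell and none rose, beside 12.3% of all tested genes lower and 8.15% higher. Sqstm1 encodes p62, a receptor for ubiquitinated cargo that is itself degraded with it (ENSMUSG00000015837.15, minus strand of chromosome 11, 50199366 to 50210827). It was by far the most abundant autophagy gene, with 1076, 1019 and 1045 FPKM in the iKO-labelled libraries and 1150, 1283 and 1214 FPKM in the controls, and made up 94.8% to 95.4% of the receptors' summed FPKM in every library. In CPM it had 3656, 3468 and 3555 in the iKO-labelled libraries, against 4002, 4392 and 4145 in the controls, and was 1.17-fold lower (-0.23 ± 0.05, adjusted p = 0.0167). The groups did not overlap, but so small a difference depends on scaling: it was -0.10 with library totals (adjusted p = 0.201). The call was lost under 10 of the 17 alternatives. It ended with upper-quartile factors (adjusted p = 0.0686), no count filter (0.0799), the 5 CPM filter (0.0669), the replicate block (0.0844) and unfiltered log2(FPKM + 1) (0.229). It also ended without control 2 or 3 or without iKO 2 or 3 (adjusted p up to 0.0744). Tax1bp1, a receptor that also binds ubiquitin (ENSMUSG00000004535.12, plus strand of chromosome 6, 52713729 to 52766780), had 309, 269 and 276 CPM in the iKO-labelled libraries, against 358, 356 and 359 CPM in the controls. The controls were almost identical and all above the iKO-labelled libraries. Tax1bp1 was 1.26-fold lower (-0.33 ± 0.07, adjusted p = 0.0179), a call lost on removing any of control 2, control 3, iKO 2 and iKO 3 (adjusted p between 0.0535 and 0.0774) and with library totals (0.0884). Nbr1, a p62-related receptor, averaged 58.8 ± 10.4 CPM in the iKO-labelled libraries and 62.5 ± 0.989 CPM in the controls, and Optn, a mitophagy receptor, 7.47 ± 1.55 CPM in the iKO-labelled libraries and 8.68 ± 2.74 CPM in the controls (adjusted p = 0.729 and 0.702).

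**Figure D4:**
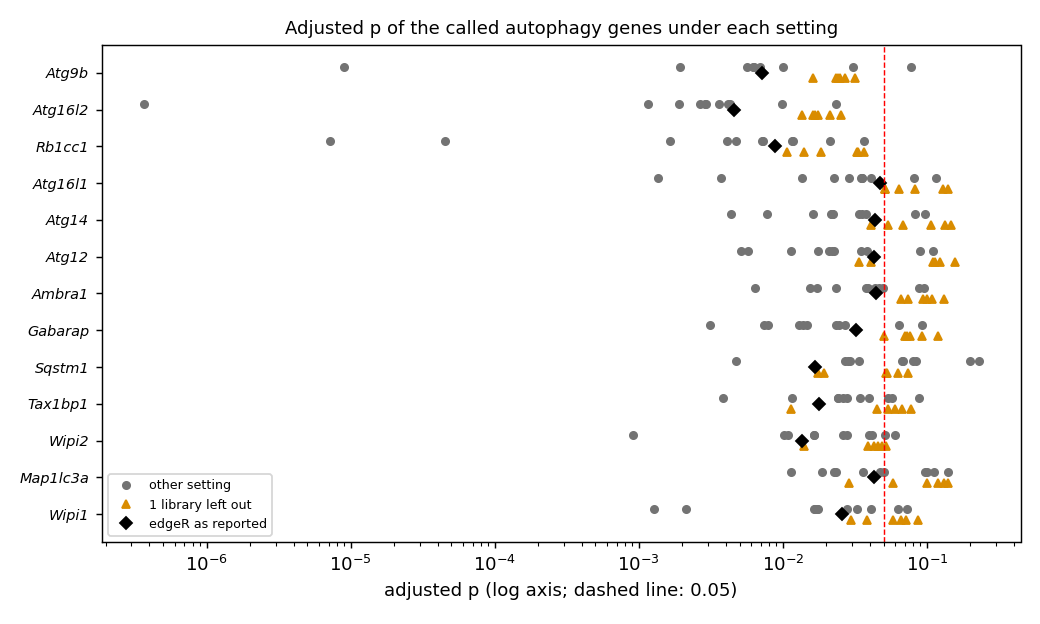
Adjusted p of the 13 called autophagy genes on a log axis: black diamonds are edgeR as reported, grey circles the other settings and orange triangles the fits with 1 library left out; the dashed line is 0.05. Rb1cc1 and Atg16l2 stay left of the line throughout, Atg9b crosses it in 1 setting, and Ambra1, Atg16l1 and Gabarap cross it whichever library is left out.

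Genes of the pathway outside this set were read from 5 lists with 73 members, all of them tested. Of these, 17 rose (23.3%) and 9 fell (12.3%), with a median log2 fold change of 0.18. Over all tested genes 8.15% were higher and 12.3% lower, with a median of 0.02. Among tested genes with a mean of at least 10 CPM, 11.4% were higher and 20.6% lower, but the 73 genes were not split by level. The lists were chosen with earlier results of these data known. With 1 library left out, 10 to 13 of the 73 rose and 8 to 10 fell. Among 11 further lipid kinase, membrane and PI3P genes, 4 rose and 2 fell. Vmp1, an endoplasmic reticulum scramblase needed for autophagosome formation, averaged 334 ± 36.8 CPM in the iKO-labelled libraries and 187 ± 9.16 CPM in the controls (0.84 ± 0.10, adjusted p = 9.04e-04), and Ei24, an autophagy protein of the same membrane first known as a p53 target, 105 ± 5.51 CPM in the iKO-labelled libraries and 46.5 ± 8.29 CPM in the controls (1.18 ± 0.14). Sh3glb1, a membrane-curving partner of Uvrag, fell to 278 ± 15.2 CPM in the iKO-labelled libraries, against 455 ± 36.2 CPM in the controls (-0.71 ± 0.08, adjusted p = 0.00103). Of 14 genes of fusion with the lysosome, 2 rose and 1 fell: the tether Epg5 (1.61 ± 0.31) and the SNARE Vamp8 (0.77 ± 0.21, called under 11 of 17 alternatives) rose, and the small GTPase Rab7 fell (-0.36 ± 0.07).

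Among 16 other selective receptors and their kinases, 1 rose and 2 fell. Beside this list and those below, 8.15% of all tested genes were higher and 12.3% lower. Rtn3, a receptor of endoplasmic reticulum tubules, fell to 137 ± 6.81 CPM in the iKO-labelled libraries, against 257 ± 5.59 CPM in the controls (-0.90 ± 0.07, adjusted p = 2.51e-04), and Phb2, a mitochondrial inner membrane receptor, fell too (-0.68 ± 0.09), while the endoplasmic reticulum receptor Ccpg1 rose, at 3.03 ± 0.35 CPM in the iKO-labelled libraries and 0.87 ± 0.404 CPM in the controls (1.80 ± 0.54, adjusted p = 0.0494). That call held under 6 of 14 alternatives, with log2 fold changes between 0.33 and 2.22 and an adjusted p up to 0.138. Of 17 transcriptional and p53-linked regulators, 6 rose and 1 fell. The 3 with the smallest p were the mTORC1 inhibitors Ddit4 (1.09 ± 0.11) and Sesn2 (0.74 ± 0.10) and the autophagy repressor Zkscan3 (0.74 ± 0.12). The member that fell was Trp53inp2 (-0.85 ± 0.16), a nuclear factor that moves to autophagosomes, named after its value was seen. Tfeb, a master regulator of lysosomal and autophagy genes, averaged 4.74 CPM in the iKO-labelled libraries and 3.22 CPM in the controls (adjusted p = 0.572), and its relative Tfe3 146 CPM in the iKO-labelled libraries and 136 CPM in the controls (adjusted p = 0.669). Of 15 genes of the mTORC1 and AMPK kinases above the initiation complex, 4 rose and 3 fell. Tsc1, of the complex that restrains mTORC1, rose (1.06 ± 0.14, adjusted p = 0.00153), and Rheb, the GTPase that activates mTORC1, fell (-0.52 ± 0.07, adjusted p = 0.00246). Prkab2, a regulatory subunit of AMPK, rose (1.08 ± 0.21, adjusted p = 0.00867). The called members of this list did not share a direction within either complex. Tsc2, the partner of Tsc1, fell to 32.8 ± 5.74 CPM in the iKO-labelled libraries, against 58.0 ± 3.29 CPM in the controls (-0.82 ± 0.16, adjusted p = 0.00892), and Prkaa1, a catalytic subunit of AMPK, fell to 48.9 ± 9.09 CPM in the iKO-labelled libraries, against 82.3 ± 7.63 CPM in the controls (-0.75 ± 0.16, adjusted p = 0.0135). Both were called under all 17 alternatives. The other called members were Prkag2, another regulatory subunit of AMPK (1.02 ± 0.28, called under 7 of 17 alternatives), and Deptor, an mTOR inhibitor (0.44 ± 0.10, called under 10 of 17), which both rose. These 4 were named after their values were seen.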

How the data were processed

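RNA of sorted satellite cells was sequenced after Smart-Seq2 amplification, per the labels' protocols. Per the submitters' processing notes, the tools included STAR, Trim Galore, DESeq2 and Subread with its featureCounts, and the build was mm10; those notes do not state each tool's role, the gene annotation, whether strand was used or how multiply matching reads were handled. The authors deposited raw read counts per gene and FPKM (fragment counts relative to gene length and library size). Comparisons of different genes in FPKM rest on the gene lengths used, and the annotation behind those is not stated. The deposited FPKM follow median-of-ratios size factors to within 9.33e-15 over the 11966 genes that had 20 or more counts throughout. Of 46078 rows, 551 without a gene name (0.108% to 0.123% of counts) were left out.

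The deposited counts entered edgeR 4.0.16 under R 4.3.3 (filterByExpr with a minimum count of 10 and a minimum total of 15, TMM factors, quasi-likelihood test with the group as only term, all 6 libraries, Benjamini-Hochberg adjustment over 16252 genes, threshold 0.05). CPM use TMM-scaled library sizes; the standard error is the log2 fold change over the square root of F. Alternatives used DESeq2 1.42.0, limma 3.58.1 (voom, and log2(FPKM + 1) or log2(FPKM + 0.1), filtered at a mean of 1 FPKM or unfiltered), other scalings and filters (none, or 5 CPM in 3 libraries), a replicate block and each library left out. Tables and plots used Python 3.11.15, pandas 2.3.3 and matplotlib 3.10.9. Gene positions come from GENCODE M21 (GRCm38), promoters from RefSeq (GRCm38.p6). No pair of libraries within a group agreed within counting noise, so none was merged as a library deposited more than once; this does not show that they came from separate animals. The members, gene lists, marker lists, motifs and alternatives were chosen with earlier results of these data known; every member is accounted for, called members and the most abundant of each role are given in full, and of the other lists the 3 called genes with the smallest p are named.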

Additional observations from a re-analysis of the deposited data

How the results depend on the processing

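Of the 13 called members, 2 (Rb1cc1 and Atg16l2) kept their call under all 17 alternatives, Atg9b kept it without each library, and 11 lost it under at least 1 alternative; no called member changed sign in any of them. The number of members called higher, 8, was 3 on unfiltered log2(FPKM + 1), 3 with a replicate block and 3 to 4 with a library left out. The number called lower, 5, was 3 with upper-quartile factors, 1 with library totals, 0 on unfiltered log2(FPKM + 1), 1 with the replicate block and 0 to 4 with a library left out. Of the other pathway genes, 17 higher became 10 on unfiltered log2(FPKM + 1), 10 with the replicate block and 10 to 13 with a library left out. Over all genes, 1324 higher became 2081 with DESeq2, 813 with the replicate block and 706 to 1159 with a library left out, and 1991 lower became 1347 to 1657 with a library left out. The cause of these shifts was not tested; the fits without a library and with the block have fewer residual degrees of freedom by construction.

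Deviations from the group means of same-numbered libraries correlated at -0.0668, -0.0021 and -0.0593. With 3 libraries per group, such values cannot tell whether same-numbered libraries were handled together. The labels give no pairing, so whether the block matches one is not known. Signs changed for 7 uncalled members. With library totals Nbr1 was at 0.045, Atg101 at 0.018, Atg7 at 0.06 and Atg4d at 0.069 on the log2 scale; with upper-quartile factors Atg7 was at 0.0074 and Atg4d at 0.013; with the filter at 5 CPM Atg4d was at 0.0065. With a library left out, log2 fold changes ran from -0.023 to 0.22 for Atg5, -0.16 to 0.36 for Atg2a, -0.20 to 0.030 for Atg7, -0.25 to 0.15 for Atg4d and -0.42 to 0.20 for Ulk3. The cause was not tested. Depth limits the rarer members: Atg9b rests on 29 to 46 counts in the controls and Atg4a.ps on 2 to 9.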
